A study of Mus musculus with 12 samples.

Results

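The integrated stress response genes described here are 36 genes of the ATF4 programme, named in a list as transcription factors, feedback and stress effectors, enzymes of serine, one-carbon, asparagine, alanine and proline synthesis, amino acid transporters and cytosolic aminoacyl-tRNA synthetases. They were listed by name. Of the 36 genes, 34 had an array probe assigned to 1 gene and 32 were measured, among 12153 genes measured in all. All 32 were tested in both tissues. Psph, the last enzyme of serine synthesis, and Slc7a1, a cationic amino acid transporter, were detected on none of the 12 arrays. Pycr1, an enzyme of proline synthesis, and Slc7a5, the light chain of a large neutral amino acid transporter, had no probe named for them and were not analysed here. Mars was matched under its newer symbol, Mars1.

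The samples were lung and terminal ileum of C57BL/6 mice (C57Bl/6 J in the methods) aged 14 days, with 3 bead arrays in each of 4 groups: hyperoxia lung, normoxia lung, hyperoxia ileum and normoxia ileum. Hyperoxia mice breathed 85% oxygen and normoxia mice 21% oxygen, both from postnatal day 3 to day 14. The exposure models the lung injury of preterm infants given oxygen, and the comparison asks how each tissue's transcriptome differed after it. Pooled litters were assigned to an exposure, so litter and exposure cannot be told apart, and dams moved between litters daily. No source used here says that the 3 arrays of a group came from separate animals, so the p-values rest on a spread between arrays that may be technical. Below, hyperoxia lungs and normoxia lungs mean the arrays of those groups.

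In the integrated stress response, kinases that sense amino acid shortage, unfolded protein, viral RNA or haem deficiency phosphorylate the initiation factor eIF2. General translation slows, while the messenger RNA of the transcription factor ATF4 is translated more. ATF4, often paired with C/EBP proteins, then raises genes that make, import and charge amino acids, together with feedback genes that restart translation and, when stress lasts, genes linked to cell death.

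ATF4 binds with C/EBP proteins at a composite sequence known as the C/EBP-ATF response element. Because this sequence is what many of these genes are known for, promoter windows from RefSeq (GRCm38.p6, 300 bases from 250 before to 50 after each start) were searched for its core, TGATGNAA, on both strands. The windows of a single chromosome were left out of the search. Of the 36 genes, 31 had a window searched, and 12 of the 31 held the core, against 4.51% of 27025 genes with a window searched. The 12 were Atf3, Nupr1, Trib3, Chac1, Herpud1, Vldlr, Asns, Pycr1, Aars, Gars, Iars and Tars. The windows printed here are shown because these genes had some of the larger changes described below, in either direction, with the core in capitals on the strand of the gene, so that a match on the opposite strand reads TTNCATCA.
Atf3, chr1:191183412-191183467, minus strand: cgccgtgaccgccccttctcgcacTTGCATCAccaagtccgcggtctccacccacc
Asns, chr6:7693210-7693256, minus strand: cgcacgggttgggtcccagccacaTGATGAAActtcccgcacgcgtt
Chac1, chr2:119351025-119351080, plus strand: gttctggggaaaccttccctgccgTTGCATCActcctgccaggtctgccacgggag
Nupr1, chr7:126625549-126625604, minus strand: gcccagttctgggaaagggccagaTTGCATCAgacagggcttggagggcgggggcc
Trib3, chr2:152344028-152344057, minus strand: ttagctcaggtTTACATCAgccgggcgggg
Vldlr, chr19:27216796-27216851, plus strand: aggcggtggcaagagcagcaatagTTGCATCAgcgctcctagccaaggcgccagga
The core began 110 bases before the start of Atf3 and of Nupr1, 23 before that of Asns, 193 before that of Chac1 and 200 before that of Vldlr, while in Trib3 it lay after the start. Ppp1r15a had no core but held the cyclic AMP response element TGACGTCA (the same letters on both strands), which 2.03% of genes with a window held. No other of the 31 genes held that element, and no window of these genes held both. A match is a description of these letters and not a site.
The window of Ppp1r15a is shown as the only one with this element.
Ppp1r15a, chr7:45526269-45526304, minus strand: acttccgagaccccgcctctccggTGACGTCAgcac

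Values are background-corrected, normalized log2 intensities of 1 probe a gene, and a change is the log2 fold change of hyperoxia over normoxia, with its standard error (SE) where given. Intensities of different probes are not set against each other. The threshold of the test was an adjusted p of 0.05 in limma, with Benjamini-Hochberg adjustment over all genes tested in a comparison, and genes past it are termed called. Each array detected 42.6% to 46.0% of 45281 probes. The mean deposited intensity was 422 to 637 on hyperoxia lung arrays, 455 to 495 on normoxia lung arrays, 313 to 427 on hyperoxia ileum arrays and 464 to 481 on normoxia ileum arrays. On 6 of the 12 arrays 2 labels disagreed about the tissue, and the tissue label was used: 9 lung epithelium genes averaged 12.70 ± 0.09 on arrays of lung and 5.77 ± 0.15 on arrays of ileum, and 9 ileum epithelium genes averaged 5.21 ± 0.14 on arrays of lung and 12.24 ± 0.38 on arrays of ileum (SD, n = 6 each).

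In lung, most of the programme was higher in hyperoxia. Of the 32 genes, 13 rose, 2 fell and 17 passed in neither direction, against a background of 9.86% of 11193 genes that rose and 10.5% that fell. The transcription factors Atf3 and Ddit3, the one-carbon enzyme Mthfd2 and the asparagine synthetase Asns rose by a log2 fold change of 1 or more, as did 4.25% of all genes tested. The change was above 0 in 27 of 32 genes, with a median of 0.51, against a median of 0.02 over all genes tested. Hyperoxia and normoxia arrays did not overlap for 24 genes that were higher and 3 that were lower, where 22.5% and 20.9% of all genes did not overlap. Without normoxia lung array 1, the count of rises was 8. The 2 falls were 1 without any 1 hyperoxia lung array or normoxia lung array 3, and none without normoxia lung array 2.

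In ileum, the same genes mostly lay on the other side. Of the 32 genes, 1 rose, 10 fell and 21 did not pass, against a background of 12.3% of 11167 genes that rose and 13.9% that fell. The change was below 0 in 23 of 32 genes, with a median of -0.25, against -0.03 over all genes tested. The falls were in Eif4ebp1, Trib3, Chac1, Ppp1r15a, Wars, Shmt2, Nupr1, Cebpb, Sars and Iars, and the rise was in Cars. Eif4ebp1 and Trib3 fell by a log2 of 1 or more, as did 4.60% of all genes tested. Hyperoxia and normoxia arrays did not overlap for 2 genes that were higher and 14 that were lower, where 18.9% and 21.1% of all genes did not overlap. The count of genes that passed in ileum, 11, was 5 without normoxia ileum array 3, 7 without normoxia ileum array 2 or without hyperoxia ileum array 3, and 5 where the ileum arrays were fitted alone.

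The shift was seen on each array. Relative to the mean of the normoxia arrays of the same tissue, the median of the 32 genes was 0.54, 0.55 and 0.45 on the hyperoxia lung arrays, with 29, 27 and 26 genes above 0. It was -0.30, -0.19 and -0.43 on the hyperoxia ileum arrays, with 8, 10 and 12 genes above 0. Single normoxia arrays lay within -0.07 and 0.11 of their own mean. In bulk tissue, a change of this kind can come from fewer or more cells of a type or from less or more RNA in each cell, and these cannot be told apart.

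**Figure D1:**
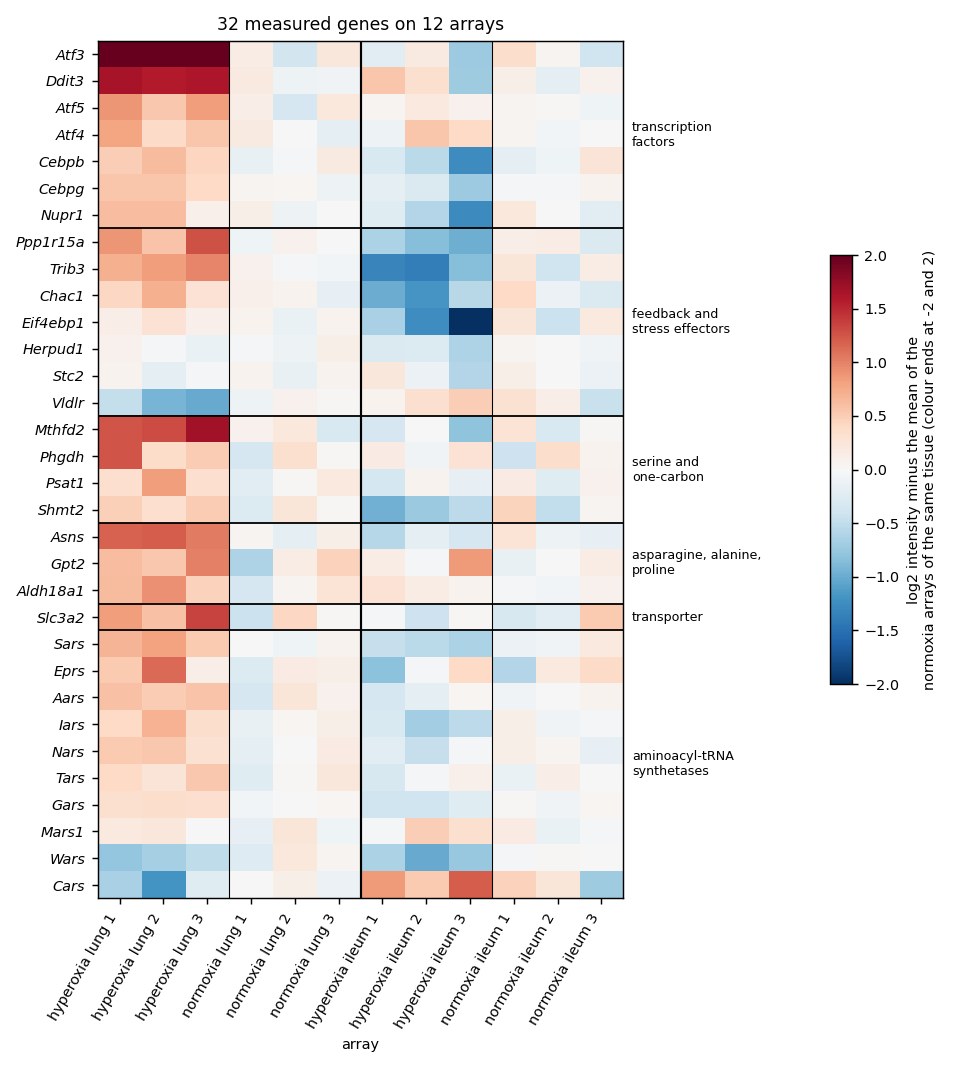
Each row is 1 of the 32 measured genes, grouped by role, and each column 1 of the 12 arrays; the colour is the log2 intensity minus the mean of the 3 normoxia arrays of the same tissue. The hyperoxia lung columns are mostly red, with Vldlr, Wars and Cars blue, and the hyperoxia ileum columns are mostly blue, with Cars red.

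Among the 7 transcription factors, 5 rose in lung and none fell, and in ileum none rose and 2 fell. The shares were 71.4% in lung and 28.6% in ileum, against 9.86% and 13.9% of all genes. Atf3, a stress-induced repressor and activator of the ATF family, was 7.60, 7.42 and 8.35 in hyperoxia lungs, against 5.35, 4.83 and 5.43 in normoxia lungs. Every hyperoxia lung array lay above every normoxia lung array, by 2.59 on average (SE 0.29, adjusted p = 3.4e-05), a 6.01-fold rise. Of the 3 normoxia lung arrays, 1 did not detect the probe, and with no background correction the change was 1.19. In ileum Atf3 was 6.46, 6.88 and 5.96 in hyperoxia and 7.04, 6.75 and 6.29 in normoxia, groups that overlapped (change -0.26, adjusted p = 0.53).

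Ddit3, which encodes CHOP, a factor linked to cell death under prolonged stress, was 9.86, 9.79 and 9.82 in hyperoxia lungs, against 8.38, 8.10 and 8.13 in normoxia lungs. The groups were far apart and the rise was 1.62 (SE 0.26, adjusted p = 0.00053), and another probe of the gene detected on all arrays gave 1.32. In ileum it was 8.99, 8.77 and 7.73 in hyperoxia and 8.55, 8.24 and 8.53 in normoxia. Hyperoxia ileum array 3 lay well below the other 2 hyperoxia ileum arrays, and the change of 0.05 did not pass (adjusted p = 0.89).

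Atf4 itself changed less than these genes. It was 12.49, 12.07 and 12.25 in hyperoxia lungs, against 11.88, 11.70 and 11.52 in normoxia lungs. The groups did not overlap and the rise was 0.57 (SE 0.19), with an adjusted p of 0.0475 close to the threshold. The call was lost, at values of 0.46 to 0.66, when any 1 of hyperoxia lung arrays 1 and 3, the normoxia lung arrays or the normoxia ileum arrays was left out, and the other detected probe gave 0.78. It was also lost with 75th percentile scaling (0.55), and with no detection filter, the deposited normalized values or a replicate block (0.57 each). In ileum Atf4 was 11.26, 11.91 and 11.76 in hyperoxia, against 11.41, 11.30 and 11.35 in normoxia, and the change of 0.29 did not pass (adjusted p = 0.27).

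Atf5, another factor translated through upstream reading frames under eIF2 phosphorylation, rose in lung by 0.75 (SE 0.17, adjusted p = 0.0068), and its change in ileum was 0.11 (adjusted p = 0.65). Cebpg, a partner of ATF4, rose in lung by 0.50 (adjusted p = 0.045), and its value in ileum was -0.40 (adjusted p = 0.085). The lung call of Cebpg was lost without any 1 of the 6 lung arrays (0.45 to 0.55), the normoxia ileum arrays or hyperoxia ileum array 2, and another detected probe gave -0.22. With the mean of all tested probes it was 0.14, not called, and the call was also lost with the deposited normalized values or a replicate block (0.50 each), and on scaling to the 75th percentile (0.49). Cebpb and Nupr1, the first a partner of ATF4 and the second a small stress-induced chromatin protein, did not pass in lung, with changes of 0.51 and 0.45. Both fell in ileum by a log2 of 0.70, Cebpb to 10.29 ± 0.50 in hyperoxia, against 10.99 ± 0.23 in normoxia, and Nupr1 to 9.65 ± 0.52 in hyperoxia, against 10.35 ± 0.21 in normoxia (SD, n = 3 each). Without hyperoxia ileum array 3, the lowest for both, each change was -0.42 and not called. The ileum call of Cebpb was also lost without normoxia ileum array 2 (-0.74) or 3 (-0.57), and that of Nupr1 without any other array except hyperoxia lung array 3 and hyperoxia ileum array 1 (-0.60 to -0.81). With no detection filter or each tissue fitted alone neither was called (-0.70 each), nor was Cebpb with a replicate block or Nupr1 in the deposited normalized values.

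**Figure D2:**
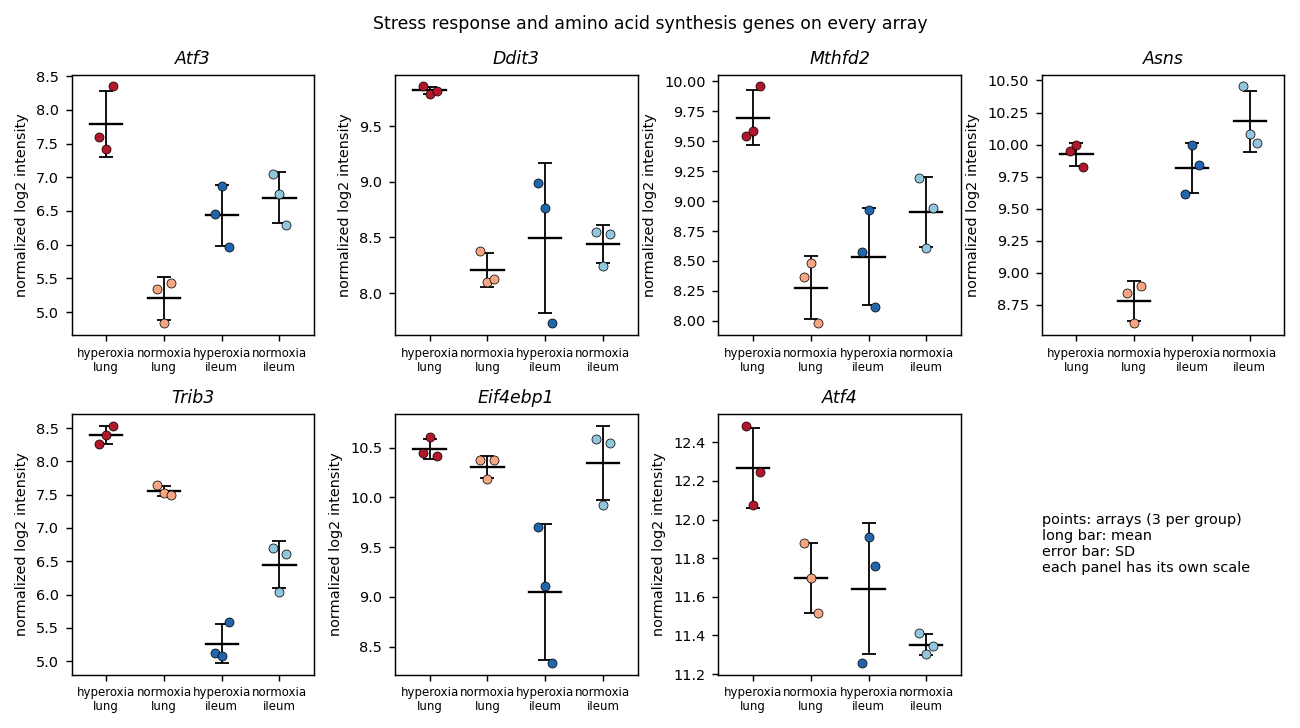
Normalized log2 intensity of 7 genes (y axes, each with its own scale) on the 3 arrays of each group, with the mean as a long bar and the SD as an error bar. For all 7 genes every hyperoxia lung array lies above every normoxia lung array, narrowly for Eif4ebp1. For Trib3, Eif4ebp1 and Asns every hyperoxia ileum array lies below every normoxia ileum array, narrowly for Asns.

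Among the 7 feedback and stress effectors, 2 rose and 1 fell in lung, and none rose and 4 fell in ileum. The shares were 28.6% and 14.3% in lung and 57.1% in ileum, against 9.86%, 10.5% and 13.9% of all genes. Trib3, a pseudokinase that restrains ATF4, was 8.26, 8.39 and 8.54 in hyperoxia lungs, against 7.64, 7.53 and 7.49 in normoxia lungs, a rise of 0.84 (SE 0.20, adjusted p = 0.0080). In ileum it was 5.12, 5.07 and 5.59 in hyperoxia, against 6.70, 6.04 and 6.60 in normoxia. The groups did not overlap in either tissue, in opposite directions, and the ileum fall was -1.18 (SE 0.20, adjusted p = 0.0015). The probe was detected on 1 of 3 hyperoxia ileum arrays and on all normoxia ileum arrays, and its other probes were detected on no ileum array. With no background correction, or with the mean of all tested probes, the ileum fall was -0.42 and still called.

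Eif4ebp1, the translational repressor 4E-BP1, was 9.70, 9.11 and 8.34 in hyperoxia ileum, against 10.58, 9.92 and 10.54 in normoxia ileum. All hyperoxia arrays were lower, with a wide spread, and the fall was -1.30 (SE 0.28, adjusted p = 0.0060). In lung it was 10.44, 10.60 and 10.42 in hyperoxia and 10.37, 10.18 and 10.37 in normoxia, a change of 0.18 that did not pass (95% interval -0.42 to 0.78).

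Ppp1r15a, the GADD34 subunit that brings a phosphatase back to eIF2, rose in lung to 9.78 ± 0.35 in hyperoxia, against 8.87 ± 0.08 in normoxia, by 0.91 (adjusted p = 0.0046). It fell in ileum to 6.70 ± 0.18 in hyperoxia, against 7.51 ± 0.25 in normoxia, by a log2 of 0.82 (adjusted p = 0.010). Chac1, which degrades glutathione, fell in ileum to 6.16 ± 0.32 in hyperoxia, against 7.07 ± 0.36 in normoxia (change -0.91, adjusted p = 0.0091). With no background correction the ileum falls were -0.46 for Ppp1r15a and -0.43 for Chac1, both still called. In lung the value of Chac1 was 0.47 and did not pass (95% interval 0.01 to 0.93, adjusted p = 0.145). With Ppp1r15a and Trib3, the synthetase gene Sars completed the 3 genes that rose in lung and fell in ileum. The share of all genes that did so was not computed.

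Vldlr, a lipoprotein receptor gene induced by ATF4, went the other way in lung. It fell to 10.05 ± 0.28 in hyperoxia lungs, against 10.86 ± 0.10 in normoxia lungs (change -0.80, adjusted p = 0.015), and 2 other probes detected on all arrays gave -0.88 and -0.78. The call was lost without hyperoxia lung array 2 (-0.74), hyperoxia lung array 3 (-0.71) or normoxia lung array 2 (-0.76). Herpud1, a component of endoplasmic reticulum protein degradation, and Stc2, a secreted glycoprotein, had lung values of -0.03 and -0.05, with 95% intervals of -0.36 to 0.30 and -0.47 to 0.37. Their ileum values were -0.40 and -0.16, and neither passed.

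Of the enzymes of serine and one-carbon synthesis, 1 of 4 rose in lung and 1 of 4 fell in ileum. Each is a share of 25% from a single gene, against 9.86% and 13.9% of all genes. Mthfd2, the mitochondrial enzyme that passes on one-carbon units from serine, was 9.54, 9.59 and 9.96 in hyperoxia lungs, against 8.37, 8.48 and 7.98 in normoxia lungs. The groups did not overlap, the rise was 1.42 (SE 0.23, adjusted p = 0.00062), a 2.67-fold difference, and its other probe gave 1.33. In ileum Mthfd2 was 8.57, 8.93 and 8.11 in hyperoxia and 9.19, 8.61 and 8.94 in normoxia, a change of -0.38 that did not pass (adjusted p = 0.24).

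The enzymes that make serine itself were less clear. Phgdh, the first enzyme of serine synthesis, had a lung change of 0.71 (95% interval 0.15 to 1.27, adjusted p = 0.072) at a low signal, detected on 2 of 3 normoxia lung arrays. Psat1, the next enzyme, had a lung change of 0.50 (95% interval 0.08 to 0.92, adjusted p = 0.087). Shmt2, which splits serine in mitochondria, was 0.44 in lung and did not pass, and fell in ileum to 5.39 ± 0.22 in hyperoxia, against 6.14 ± 0.47 in normoxia (change -0.75, adjusted p = 0.028). The ileum call of Shmt2 was lost without hyperoxia ileum array 1 (-0.64) or 2 (-0.75) or normoxia ileum array 1 (-0.52) or 3 (-0.72), and it was detected on 2 of 3 hyperoxia ileum arrays. It was also lost with no background correction (-0.26), array weights (-0.52), 75th percentile scaling (-0.57) or each tissue fitted alone (-0.75).

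Asns, which makes asparagine from aspartate, was 9.95, 10.00 and 9.82 in hyperoxia lungs, against 8.84, 8.60 and 8.90 in normoxia lungs. The groups were apart by more than their own spread, the rise was 1.14 (SE 0.17, adjusted p = 0.00033), a 2.21-fold difference, and another probe detected on all arrays gave 1.35. In ileum Asns was 9.61, 10.00 and 9.84 in hyperoxia, against 10.45, 10.08 and 10.02 in normoxia. All hyperoxia ileum arrays were lower, but the change of -0.37 did not pass (adjusted p = 0.13).

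Aldh18a1, the entry enzyme of proline synthesis, rose in lung by 0.67 (adjusted p = 0.019), and its ileum value was 0.18. That call was lost without hyperoxia lung array 2 (0.54) or normoxia lung array 1 (0.50). Gpt2, the mitochondrial alanine aminotransferase, had a lung change of 0.72 (95% interval 0.13 to 1.32) that did not pass (adjusted p = 0.081). Slc3a2, the heavy chain shared by several amino acid transporters and the only transporter gene of the list measured, rose in lung to 6.56 ± 0.39 in hyperoxia, against 5.63 ± 0.43 in normoxia (change 0.92, adjusted p = 0.029). The call of Slc3a2 was lost without hyperoxia lung array 1 (0.97) or 3 (0.71) or normoxia lung array 1 (0.70) or 3 (0.93), and its probe was detected on 2 of 3 normoxia lung arrays. It was also lost with no background correction (0.36) or no detection filter (0.92).

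The 10 cytosolic aminoacyl-tRNA synthetases charge transfer RNAs with their amino acids. In lung 2 rose and 1 fell, and 8 of 10 had a change above 0. In ileum 1 rose and 3 fell, and 8 of 10 had a change below 0. The shares were 20% and 10% in lung, against 9.86% and 10.5% of all genes, and 10% and 30% in ileum, against 12.3% and 13.9%. The lung fall and the ileum rise were near the shares of all genes. Sars, the seryl enzyme, rose in lung by 0.66 (adjusted p = 0.0064) and fell in ileum by a log2 of 0.55 (adjusted p = 0.019), and its ileum call was lost without normoxia ileum array 3 (-0.45), with the mean of all tested probes (-0.31) or with each tissue fitted alone (-0.55).

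Aars, the alanyl enzyme, was 10.83, 10.77 and 10.82 in hyperoxia lungs, against 9.92, 10.50 and 10.34 in normoxia lungs (change 0.55, adjusted p = 0.036). The hyperoxia lung arrays were nearly alike and normoxia lung array 1 was the lowest. Without normoxia lung array 1 the change was 0.39 and not called. The call was also lost without any 1 hyperoxia lung array (0.54 to 0.57), normoxia lung array 3 (0.59) or normoxia ileum array 2 (0.55), and with scaling to the 75th percentile (0.53). Iars, the isoleucyl enzyme, fell in ileum by a log2 of 0.51 (adjusted p = 0.036), and its lung value was 0.49 (adjusted p = 0.051). The ileum call of Iars was lost without hyperoxia ileum array 2 (-0.41) or 3 (-0.50), any 1 normoxia ileum array (-0.45 to -0.55) or normoxia lung array 2 (-0.51), and with the mean of all tested probes (-0.38), each tissue fitted alone or a replicate block (-0.51 each).

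Wars, the tryptophanyl enzyme, is also known as an interferon-induced gene. It was lower in both tissues: 10.03, 10.13 and 10.30 in hyperoxia lungs, against 10.54, 11.02 and 10.86 in normoxia lungs, and 9.22, 8.84 and 9.10 in hyperoxia ileum, against 9.82, 9.88 and 9.85 in normoxia ileum. The groups did not overlap in either tissue. The falls were -0.65 in lung (adjusted p = 0.014) and -0.80 in ileum (adjusted p = 0.0054), and all 4 probes of the gene were lower in both. In lung the call was lost without hyperoxia lung array 1 (-0.59) or normoxia lung array 2 (-0.55) or 3 (-0.62), and with the mean of all tested probes (-0.42). The exposure effects on Wars differed by 0.15 between the tissues (95% interval -0.36 to 0.66).

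Cars, the cysteinyl enzyme, ran against the rest, with a value of -0.70 in lung (adjusted p = 0.12) and a rise of 0.86 in ileum (adjusted p = 0.049). Its probe is assigned to a complementary DNA clone, and both probes assigned to the RefSeq transcript of Cars were detected on none of the 12 arrays. The ileum call of Cars was lost without hyperoxia lung array 1, any 1 normoxia lung array (0.86 each), hyperoxia ileum array 1 (0.87) or 3 (0.69), or normoxia ileum array 2 (0.98) or 3 (0.51). It was also lost with array weights (0.46), 75th percentile scaling (0.84), and the deposited normalized values, no detection filter, each tissue fitted alone or a replicate block (0.86 each), and with no background correction it was 0.45 and called. The remaining synthetases, Eprs, Nars, Tars, Gars and Mars1, did not pass in either tissue, with lung values of 0.14 to 0.59 and ileum values of -0.34 to 0.26. Mars1 had another probe detected on all arrays whose values, -0.11 in lung and -0.68 in ileum, had the opposite sign to those of the probe used.

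**Figure D3:**
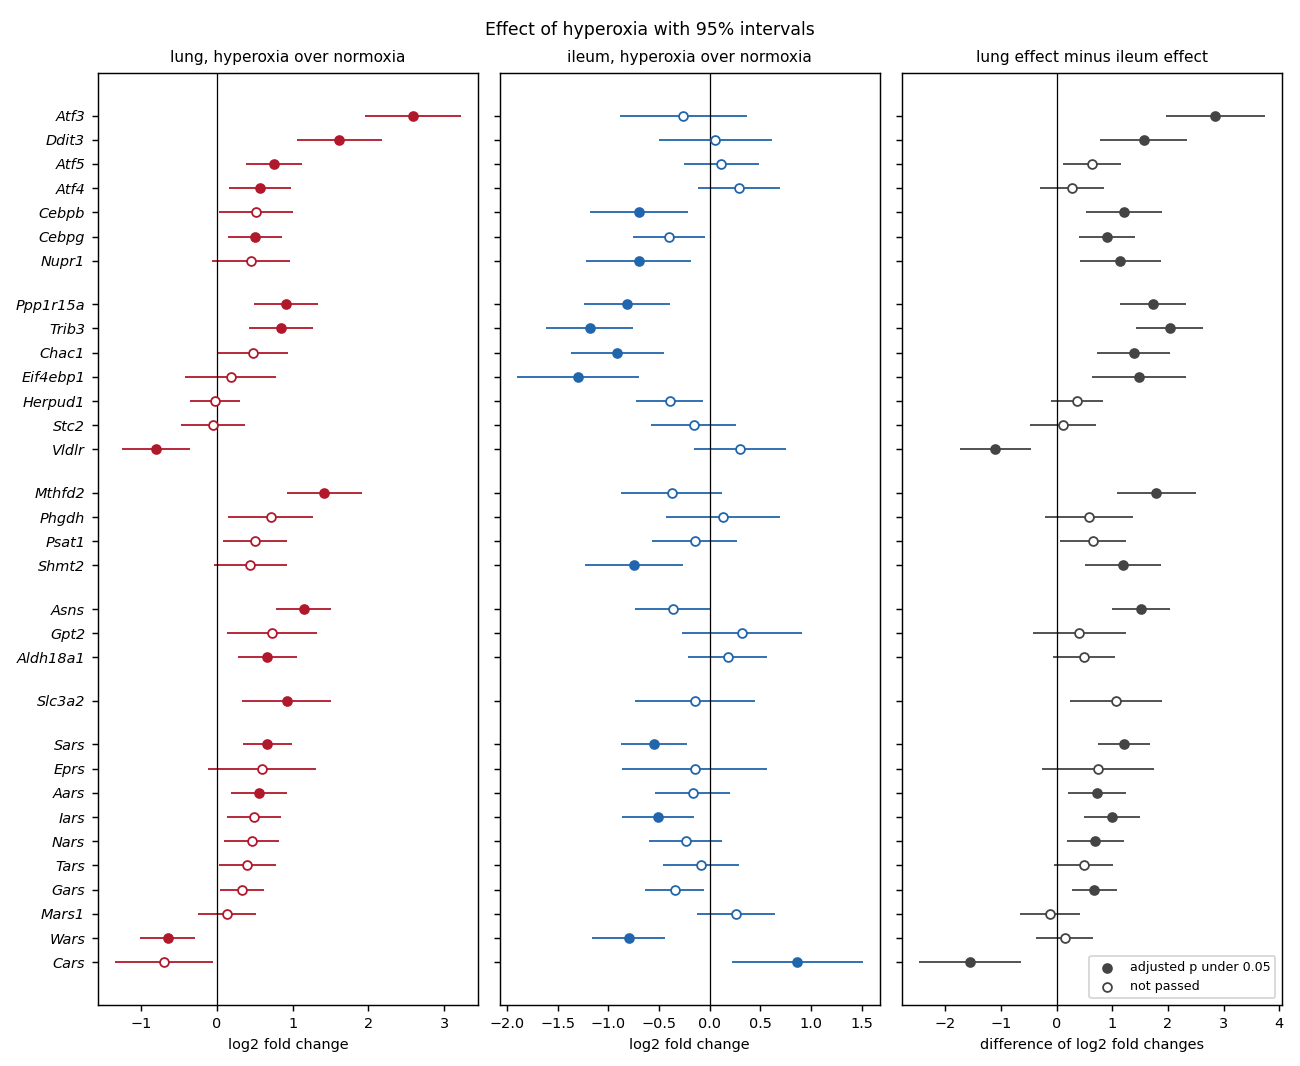
Log2 fold change of hyperoxia over normoxia in lung (left) and ileum (middle), and their difference (right), for the 32 genes grouped by role; lines are 95% intervals and filled points passed an adjusted p under 0.05. Atf3 has the largest lung change shown, 2.59, Eif4ebp1 the largest ileum fall, -1.30, and 29 of the 32 differences lie above 0.

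The direct test of the difference between the tissues, the lung effect minus the ileum effect, called 19 of the 32 genes, 17 above 0 and 2 below, against 13.8% and 12.7% of 10207 genes tested. The difference was above 0 in 29 of 32 genes, with a median of 0.73, against 0.05 over all genes tested. It was 2.85 for Atf3 (SE 0.41, adjusted p = 0.00051), 2.03 for Trib3 (SE 0.28, adjusted p = 0.00038), 1.79 for Mthfd2 (SE 0.33, adjusted p = 0.0020) and 1.73 for Ppp1r15a (SE 0.28, adjusted p = 0.00099). Below 0 were Vldlr, at -1.10, and Cars, at -1.56. Atf4 was not called, with a difference of 0.28 (95% interval -0.29 to 0.86). Of the 32 genes, 20 had a change above 0 in lung and below 0 in ileum, 7 were above 0 in both, 3 below 0 in both and 2 below 0 in lung and above 0 in ileum.

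The genes with the TGATGNAA core were set beside those without it as a description. Of the 11 measured genes with the core, 4 rose and 1 fell in lung, with a median change of 0.47, and none rose and 4 fell in ileum, with a median of -0.37. Of the 17 measured genes whose window lacked it, 9 rose and none fell in lung, with a median of 0.66, and none rose and 4 fell in ileum, with a median of -0.15. Of all genes tested, 9.86% rose and 10.5% fell in lung, and 12.3% rose and 13.9% fell in ileum. Eif4ebp1, Wars, Nars and Cars had no window searched and are in neither set. Trib3 and Asns, with the core, and Ddit3 and Mthfd2, without it in this window, were all among the lung rises.

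Between normoxia lung and normoxia ileum, at 14 days, 7 of the 32 genes (21.9%) were higher in lung and 8 (25.0%) were lower, against 29.4% and 26.1% of 12153 genes. Both shares lay below those of all genes, so the counts are no result about these genes. Vldlr was higher in lung by 2.24, Nupr1 by 1.88, Cebpb by 1.84, Ppp1r15a by 1.36, Trib3 by 1.11, Wars by 0.95 and Atf5 by 0.84. They included 3 of the 7 feedback and stress effectors and 3 of the 7 transcription factors.

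Lower in normoxia lung than in normoxia ileum were Aldh18a1 by a log2 fold change of -3.17, Atf3 by -1.49, Asns by -1.40, Nars by -1.40, Stc2 by -1.18, Cebpg by -0.99, Mthfd2 by -0.64 and Iars by -0.61. Aldh18a1 averaged 8.31 ± 0.31 in normoxia lung and 11.48 ± 0.08 in normoxia ileum (SD, n = 3 each), the widest gap between the tissues among the 32 genes. Atf3, Asns and Mthfd2, 3 of the 4 genes whose lung rise was 1 or more, were lower in normoxia lung than in normoxia ileum. These comparisons share the normoxia lung arrays with the lung effect of hyperoxia.

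Each of 6 other lists of the pathway had a median change above 0 in lung and below 0 in ileum. Among eIF2 kinases, eIF2 subunits and the exchange factor eIF2B, 1 of 11 rose and none fell in lung, with a median of 0.37, and in ileum 1 of 12 rose and 4 fell, with a median of -0.39. In lung Eif2b3, a subunit of eIF2B, rose by 0.64 (adjusted p = 0.0050). In ileum Eif2ak1, the haem-regulated eIF2 kinase, fell by a log2 of 0.91 (adjusted p = 0.0022), Ppp1r15b, the constitutive partner of the eIF2 phosphatase, fell by 0.68 on the log2 scale (adjusted p = 0.013), and Impact, an inhibitor of the amino acid sensing kinase GCN2, rose by 1.06 (adjusted p = 0.0089). The share that rose in lung, 9.09%, and the share that rose in ileum, 8.33%, lay below the 9.86% and 12.3% of all genes. The share that fell in ileum was 33.3%, against 13.9% of all genes. The difference between tissues was called above 0 for 7 of 11 (63.6%, against 13.8% of all genes) and below 0 for none.

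Of 12 other ATF4 targets tested in each tissue, 4 rose and 2 fell in lung, with a median of 0.30, and none rose and 3 fell in ileum, with a median of -0.33. The shares were 33.3% and 16.7% in lung and 25.0% in ileum, against 9.86%, 10.5% and 13.9% of all genes. Slc7a11, the cystine and glutamate exchanger that works as a partner of the Slc3a2 heavy chain and is also a target of NRF2, rose in lung by 3.70 (adjusted p = 1.1e-08), with its probe detected on 1 of 3 normoxia lung arrays. In ileum all normoxia arrays and no hyperoxia array detected it, so it was tested there only because normoxia arrays detected it. It is 1 of the 3 ileum falls, and it was at least 1.45-fold lower in hyperoxia than in normoxia. Sqstm1, the autophagy receptor p62, rose in lung by 0.71 (adjusted p = 0.0091) and fell in ileum by a log2 of 0.68 (adjusted p = 0.013). The lung falls were in transporters, Slc6a9 for glycine (-1.11, adjusted p = 0.00078) and Slc1a4 for neutral amino acids (-0.69, adjusted p = 0.014).

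Of the other serine, one-carbon and proline genes, 2 of 12 rose in lung and none fell, and none of 11 rose in ileum and 3 fell. The shares were 16.7% in lung and 27.3% in ileum, against 9.86% and 13.9% of all genes. In lung the rises were in Tyms, thymidylate synthase (1.26, adjusted p = 0.0013), and Aldh1l2, a mitochondrial folate enzyme (0.87, adjusted p = 0.0061). In ileum Gpt, the cytosolic alanine aminotransferase, fell by a log2 of 1.88 (adjusted p = 8.4e-06) and Aldh1l1, the cytosolic counterpart of Aldh1l2, by a log2 of 1.67 (adjusted p = 0.00026).

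Of 8 other cytosolic synthetases, 2 rose and none fell in lung and none rose and 3 fell in ileum, with medians of 0.40 and -0.45. The shares were 25.0% in lung and 37.5% in ileum, against 9.86% and 13.9% of all genes. Rars, the arginyl enzyme, rose in lung by 0.91 (adjusted p = 0.00067), and Kars, the lysyl enzyme, fell in ileum by a log2 of 0.80 (adjusted p = 0.0090). Of the mitochondrial synthetases, 3 of 13 rose and none fell in lung and 1 of 12 rose and 2 fell in ileum, with medians of 0.21 and -0.16. The shares were 23.1% in lung and 8.33% and 16.7% in ileum, against 9.86%, 12.3% and 13.9% of all genes. The ileum counts are therefore no result about this list. Among 17 endoplasmic reticulum chaperones and unfolded protein response genes, 1 rose in lung (Sdf2l1, 1.04, adjusted p = 0.0053) and none fell, with a median of 0.25. In ileum 1 of the 17 rose and 2 fell, with a median of -0.11. The falls were in Calr, the chaperone calreticulin (-1.36, adjusted p = 0.011), and Sdf2l1 (-0.72, adjusted p = 0.036). The rise was in Dnajb9 (0.51, adjusted p = 0.036), whose lung value of -0.37 was not called. Its lung effect minus its ileum effect was -0.88 (adjusted p = 0.015). The shares called in this list, 5.88% in lung and 5.88% and 11.8% in ileum, lay below the 9.86%, 12.3% and 13.9% of all genes.

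**Figure D4:**
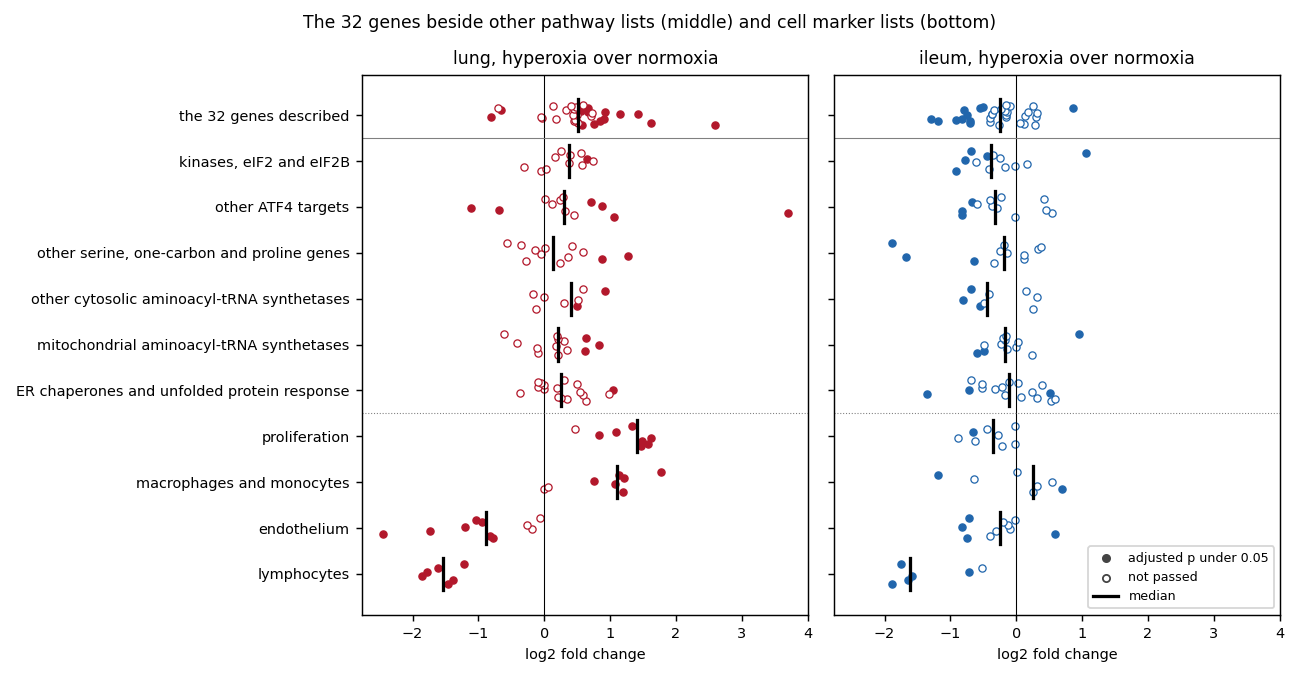
Log2 fold change of hyperoxia over normoxia in lung (left) and ileum (right) for the 32 genes (top), other lists of the pathway (middle) and cell marker lists (bottom); each point is a gene, filled where it passed an adjusted p under 0.05, and the bar is the median. The 32 genes have a median of 0.51 in lung and -0.25 in ileum, and proliferation genes 1.41 and -0.36.

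Markers of cell types and of cell division moved alongside these genes, and their part in the result was not tested. In lung 7 of 8 proliferation genes rose and none fell (median 1.41), and their summed intensity was 2940 to 4552 on hyperoxia arrays, against 1359 to 1608 on normoxia arrays. In ileum none rose and 1 fell (median -0.36), with sums of 2658 to 3422 on hyperoxia arrays, against 3532 to 4499 on normoxia arrays. Of 8 macrophage and monocyte genes, 6 rose in lung and none fell, with sums of 20174 to 21669 in hyperoxia, against 16488 to 17768 in normoxia. The shares that rose in lung were 87.5% for proliferation and 75% for macrophages and monocytes, against 9.86% of all genes. The share of proliferation genes that fell in ileum, 12.5%, lay below the 13.9% of all genes.

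Markers of endothelium and lymphocytes were lower. Endothelial genes fell in lung, 7 of 10, with sums of 17715 to 23346 in hyperoxia, against 35464 to 38854 in normoxia. In ileum 3 of the 10 fell and 1 rose. Lymphocyte genes fell in both tissues, 6 of 6 in lung and 5 of 6 in ileum, with sums in lung of 588 to 1266 in hyperoxia, against 2221 to 2543 in normoxia. None of 9 lung epithelium genes passed in lung (median -0.07), and none of 6 neutrophil genes did, while 2 of 8 fibroblast genes rose and 2 fell. In ileum, 5 of 9 ileum epithelium genes fell (median -0.47), with sums of 63468 to 66614 in hyperoxia, against 76248 to 83319 in normoxia. The shares that fell in lung were 70% for endothelium, 100% for lymphocytes and 25% for fibroblasts, against 10.5% of all genes. In ileum they were 30% for endothelium, 83.3% for lymphocytes and 55.6% for ileum epithelium, against 13.9%. The shares that rose were 25% for fibroblasts in lung, against 9.86%, and 10% for endothelium in ileum, against 12.3%.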

How the data were processed

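Bead arrays of the MouseWG-6 v2.0 type were read with GenomeStudio 2011.1, a tool named in the submitters' processing notes. The authors deposited raw intensity values, with neither background subtraction nor scaling, and beside each a detection p-value against the negative controls of that array. A second table, of normalized intensity values deposited by the authors with a method not given in the sources used here, served as an alternative. For lung RNA the labels name the right lung and the methods the left lower lobe, and both name the terminal ileum. No replicate was pooled as far as the sources say. The number of arrays limits the precision.

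Here background correction, quantile normalization and the log2 scale came from neqc (limma 3.58.1, R 4.3.3) with an offset of 16. Of 45281 probes, 34885 had 1 gene symbol and were used, 18 had several and 10378 none. A gene took its brightest probe among those with a detection p under 0.05 on at least 3 of the 6 arrays of a tissue, and was tested in a tissue where that probe met this limit. A model with 4 group means over 12 arrays was fitted with moderated variances. Calls took an adjusted p under 0.05 (Benjamini-Hochberg). An exact permutation test of 3 arrays against 3 cannot go below 0.1 and was therefore not run for single genes. The fit was also run on simulated data in which each gene had the same spread in all 4 groups. That run cannot speak for genes whose spread differed between groups.

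The genes and lists were chosen with earlier results of these data known. Values on every array are given for genes called with a log2 change of at least 1 in either direction and for Atf4, Ddit3 and Asns; some other genes also have theirs, chosen after they were seen (Aars and Wars). Up to 4 genes of each other list are named, by the size of the moderated statistic. Alternatives were other background corrections, scalings, detection filters, probe rules, variance models, array weights, a replicate block, each tissue fitted alone and each array left out. Python 3.11.15 and matplotlib 3.10.9 were used for figures and the promoter search.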

Additional observations from a re-analysis of the deposited data

Results flagged for a closer look

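For 19 of the 32 genes the effect of hyperoxia differed between lung and ileum in the direct test of that difference (limma, adjusted over all genes tested). The values are the lung effect minus the ileum effect on the log2 scale. Among transcription factors they were 2.85 for Atf3 (adjusted p = 0.00051), 1.56 for Ddit3 (0.0081), 1.21 for Cebpb (0.014), 1.15 for Nupr1 (0.025) and 0.90 for Cebpg (0.013). Among feedback and stress effectors they were 2.03 for Trib3 (0.00038), 1.73 for Ppp1r15a (0.00099), 1.48 for Eif4ebp1 (0.016), 1.38 for Chac1 (0.0059) and -1.10 for Vldlr (0.017). Among enzymes of amino acid synthesis they were 1.79 for Mthfd2 (0.0020), 1.51 for Asns (0.00097) and 1.19 for Shmt2 (0.016).

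Among the synthetases the differences were 1.21 for Sars (adjusted p = 0.0017), 0.99 for Iars (0.0080), 0.72 for Aars (0.043), 0.70 for Nars (0.045), 0.68 for Gars (0.020) and -1.56 for Cars (0.017). Ddit3, Asns and Mthfd2 passed the test of exposure in lung and not in ileum, Eif4ebp1 and Chac1 passed it in ileum and not in lung, and Nars and Gars passed it in neither tissue alone. Without normoxia lung array 1 the difference was 0.55 for Aars, 0.61 for Nars and 0.65 for Gars, and none of these was called. The calls of Aars, Nars and Nupr1 were lost with several other single arrays left out as well. With the mean of all tested probes the difference was 0.20 for Cebpg (adjusted p = 0.48) and 1.23 for Trib3, the first not called. With no background correction it was 1.31 for Atf3, 1.01 for Trib3, 0.73 for Chac1, 0.47 for Shmt2 and -0.76 for Cars, all still called. With a replicate block Aars and Nars were not called, nor was Nars in the deposited normalized values. No single array stood out by a test within a group, because groups of 3 were not tested for this.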

How the results depend on the processing

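Among the 32 genes, no call in lung, in ileum or for the difference changed direction under an alternative. For the tissues and for the other lists, alternatives were not run gene by gene. The count of called genes among the 32 stayed within 1.5 times its value under all of them, except as follows. In lung the count was 25 with array weights, against 15, while all genes called came to 3915, against 2277. In ileum it was 5 with each tissue fitted alone, against 11, when all genes called came to 1456, against 2929; array weights gave 4485 genes in all. With 1 array left out, the count in ileum was 5 to 11, and all genes called in ileum were 1395 without normoxia ileum array 3 and 1891 without normoxia ileum array 2. In lung the count was 10 to 20, with 8 to 18 rises and 0 to 2 falls, with 1 array left out, for the difference 16 to 19 and for the tissues 14 to 15. The calls that held under every alternative that gave a value were Atf3, Ddit3, Mthfd2, Asns, Atf5, Trib3, Ppp1r15a and Sars in lung, and Trib3, Eif4ebp1, Chac1, Ppp1r15a and Wars in ileum. Of the 32 genes, 27 were tested in each tissue under a stricter detection filter. The cause was not tested for any of these changes.

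The values below changed sign, and none of them was called, either in the report or under the alternative. With array weights, Herpud1 was 0.018 in lung, and in ileum Atf3 was 0.037, Mthfd2 0.071, Phgdh -0.19 and Psat1 0.11. With scaling to the 75th percentile, Ddit3 was -0.024 and Slc3a2 0.013 in ileum. With the mean of all tested probes, Ddit3 was -0.033, Eprs 0.15 and Mars1 -0.21 in ileum, and Mars1 was 0.22 for the difference. With 1 array left out, Herpud1 was -0.086 to 0.034 and Stc2 -0.13 to 0.026 in lung. In ileum Ddit3 was -0.19 to 0.44, Eprs -0.44 to 0.19, Phgdh -0.081 to 0.31, Slc3a2 -0.30 to 0.11, Stc2 -0.35 to 0.054 and Tars -0.18 to 0.029, and the difference of Stc2 was -0.10 to 0.30.

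Arrays of the same number in hyperoxia and normoxia did not deviate together, with correlations of -0.26 to 0.02 over 6 pairs and none over 0.1. For lung and ileum arrays of the same number and exposure the correlations were -0.09 to 0.11 over 6 pairs, 1 of them over 0.1. No source used here says whether lung and ileum arrays came from the same mice, and these correlations cannot settle it. The test of the difference between the tissues took all arrays as independent. With a replicate block the counts were 14 in lung, 8 in ileum, 18 for the difference and 15 for the tissues, and 9 calls of single genes changed. Signals near background, such as those of Atf3, Phgdh and Slc3a2 in normoxia lung and of Trib3 and Shmt2 in hyperoxia ileum, limit how well those folds are known.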
